A study of Mus musculus with 4 samples.

Results

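The chromatin of 10 genes of the NRF2 antioxidant response was examined in murine bone MSCs (mesenchymal stem cells) with ATAC-seq, a method in which a transposase inserts sequencing adapters wherever DNA is open. The genes were Nfe2l2, which encodes NRF2, its inhibitor Keap1, and the target genes Hmox1, Nqo1, Gclm, Gclc, Slc7a11, Txnrd1, Srxn1 and Sod2. All peaks that overlapped the span from 10 kb upstream of a gene to 5 kb past its end (GENCODE M21, build mm10) were taken, which gave 76 of the 128055 peaks of the deposited table. Of these, 10 were promoter peaks (no further than 1 kb from a protein-coding start of the gene), 65 were distal peaks elsewhere in the span (43 over introns, 13 over exons and 9 in intergenic DNA), and 1 in the span of Gclm lay at the start of another gene. Every gene had exactly 1 promoter peak.

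The cells came from mice 3 to 5 months old, of the C57BL/6N strain by the study's methods, with no altered gene and no drug given in the labels. They were cultured in hypoxia (2% O2) or in normoxia (21% O2), 2 libraries each, and the labels give a sort by flow cytometry on day 12. The study's methods describe a sort for Sca-1 and PDGFRa and against CD45 and TER-119. The study split the sorted cells, returned a part to hypoxia and moved the rest to high oxygen, each for a week. The labels do not say which libraries shared a sort, and the main test did not pair them. Nothing in the labels says whether the libraries of a group came from different animals, although the study calls its replicates independent experiments, so the p-values measure the spread between these libraries only. All 6 mesenchymal markers examined (Pdgfra, Ly6a, Prrx1, Eng, Nt5e, Thy1) had a promoter peak, with 6.71 to 26.7 units of signal per kb in hypoxia and 8.03 to 15.6 in normoxia, against medians of 29.96 and 18.04 over all promoter peaks. Of the blood markers Ptprc and Cd79a had no promoter peak, while Spi1, Csf1r and Klf1 had one. Of the endothelial markers Cdh5 had none, while Pecam1, Kdr and Tek had one. The peaks of these blood and endothelial genes held between 13.3 and 34.1 units per kb in hypoxia and between 12.1 and 21.1 in normoxia, and their part in the results was not tested.

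As background, NRF2 is a leucine zipper transcription factor that is held down by KEAP1, an adaptor that hands it to the CUL3 ubiquitin ligase for degradation. Oxidants and electrophiles modify cysteines of KEAP1, NRF2 then accumulates, pairs with a small MAF protein and binds antioxidant response elements, while the heme sensor BACH1 occupies the same elements as a repressor. The targets supply glutathione, reduce thioredoxin, remove quinones and break down heme. Culture in atmospheric oxygen exposes cells to more oxygen than they meet in bone, and the question put to these peaks was whether 21% oxygen opened them.

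The antioxidant response element was searched by its core, TGACNNNGC, on both strands of each peak in the reference genome. The core was not rare in ATAC peaks, since 39.2% of all peaks held it. Promoter peaks of the 10 genes held 0.469 cores per kb against 0.409 in all promoter peaks, and their distal peaks 0.406 against 0.424 in all distal peaks. The letters TGACTCAGC, in which the core is joined to the binding site of AP-1 (TGANTCA), were singled out after the sequences were seen. They were found in 4 of the 76 peaks (5.26%) and in 4.44% of all peaks, and a 3900-bp peak upstream of Hmox1 held them 3 times within 86 bp. Only 43 of all peaks (0.0336%) held 3 or more, and among the 415 peaks of that width it was the only one. These sites are shown because they lie in the upstream peaks of Hmox1 and Gclc and, downstream of the start, in the promoter peak of Sod2, to which the values below refer, each written 5′ to 3′ on the strand that reads the core, with the core in capitals (mm10).
Hmox1 far upstream, chr8:75083939-75084024, minus strand: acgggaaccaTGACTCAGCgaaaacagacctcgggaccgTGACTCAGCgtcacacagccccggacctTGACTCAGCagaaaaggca
Hmox1 near upstream, chr8:75089729-75089779, minus strand: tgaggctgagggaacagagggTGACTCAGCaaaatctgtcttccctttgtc
Gclc near upstream, chr9:77750724-77750774, minus strand: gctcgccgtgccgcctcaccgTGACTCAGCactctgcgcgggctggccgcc
Sod2 inside the promoter peak, chr17:13010021-13010071, minus strand: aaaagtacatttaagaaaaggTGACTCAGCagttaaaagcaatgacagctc

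The core nearest to a start site within the promoter peak lay at -12 bp in Gclm, -31 in Keap1, 32 in Srxn1, -61 in Txnrd1, 115 in Sod2, -258 in Nfe2l2, 344 in Slc7a11, -1538 in Nqo1 and 4802 in Hmox1, and Gclc had none. These distances run to the nearest start of any protein-coding transcript of the gene, which in Gclm, Keap1, Txnrd1 and Sod2 lay away from the main start. The cores at -12 in Gclm (122245652) and -31 in Keap1 (21238840) lay downstream of the main starts (122245557, plus strand, and 21239361, minus strand). These cores, and those at 32 in Srxn1 and 115 in Sod2, sat in windows of 51 bases wholly inside annotated UTRs. The cores at -61 in Txnrd1, at -130 in Gclm and at -258 in Nfe2l2 lay outside annotated UTRs. Of the 10 genes, 8 matched RefSeq promoters (GRCm38.p6, 250 bases before to 50 after the start), in 10 windows. A core was found in 4 of these windows, those of Nfe2l2, Srxn1, Gclm and 1 of 3 start sites of Txnrd1, and in 12.4% of 32851 such windows over the genome. Hmox1 and Gclc were not matched. These 3 upstream cores are shown because the order of the promoters is set beside their cores below.
Txnrd1, chr10:82859093-82859143, minus strand: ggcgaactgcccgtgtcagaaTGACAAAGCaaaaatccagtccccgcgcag
Gclm, chr3:122245402-122245452, minus strand: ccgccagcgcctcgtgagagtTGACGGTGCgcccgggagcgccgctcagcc
Nfe2l2, chr2:75704874-75704924, minus strand: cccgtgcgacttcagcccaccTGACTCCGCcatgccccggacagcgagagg

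With the deposited signal taken as reads per 10000000 library reads, the libraries were of like depth, with totals of 26680936 to 29965523 reads. A peak of the 10 genes held a median of 36.5 to 48 reads per library. The libraries differed in how many reads fell in nuclear peaks, 49.2% and 53.2% of the library total in hypoxia against 31.0% and 35.2% in normoxia, and in mitochondrial peaks, 7.77% and 9.13% against 1.5% and 2.34%. The deposited signal was taken as the read number of a peak, divided by the reads of the library, times 10000000, and is not divided by peak width. The factor 10000000 was assumed and not measured. Another factor would scale these totals and shares alike in every library. Because the share of reads in peaks moved with oxygen, each fold change depends on how libraries are scaled. The fold changes below are normoxia over hypoxia on the log2(signal + 1) scale after relative log expression (RLE) size factors, tested with limma over all peaks, and a peak is called lower or higher at a false discovery rate (FDR) under 0.01. Values under the other scalings are set beside them, since the median over all peaks was -0.44 with no scaling beyond the library total, 0.26 with equal totals over peaks, and near 0 after RLE scaling and cyclic loess.

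The promoters of the NRF2 genes were not called more open at 21% oxygen after RLE scaling, although other scalings, given further down, moved the counts in both directions. None of the 10 promoter peaks was called higher, 4 were called lower (Nfe2l2, Hmox1, Gclc and Srxn1), and of the 65 distal peaks 1 was called lower and 2 higher, by limma. With edgeR on the reads recovered from the values, 0 promoters were again called higher and 3 lower, and at an unadjusted p under 0.05 the limma counts were 0 higher and 6 lower, where 44.1% of all promoter peaks were lower and 3.88% higher. Of all promoter peaks 16.7% were called lower and 0.441% higher, and among the 5858 promoter peaks at least as strong as the weakest of the 10 the shares were 37.9% lower and 0.205% higher, or 76.2% and 0.427% at an unadjusted p under 0.05. The 4 of 10 stood near the share of the other strong promoters. Their median log2 fold change was -0.36, against -0.27 over all promoter peaks and -0.38 over those of like strength. Distal peaks had a median of 0.07 against 0.05 over all other peaks, of which 2.64% were called lower and 1.98% higher. Over all 128055 peaks 4.57% were called lower and 1.77% higher. Every call of the table was lost without hypoxia replicate 1 and without hypoxia replicate 2, when 24119 and 24294 peaks still had an unadjusted p under 0.05 and the promoter median was -0.35 and -0.33. Without normoxia replicate 2 the calls over the 76 peaks were 7 lower and 1 higher.

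**Figure D1:**
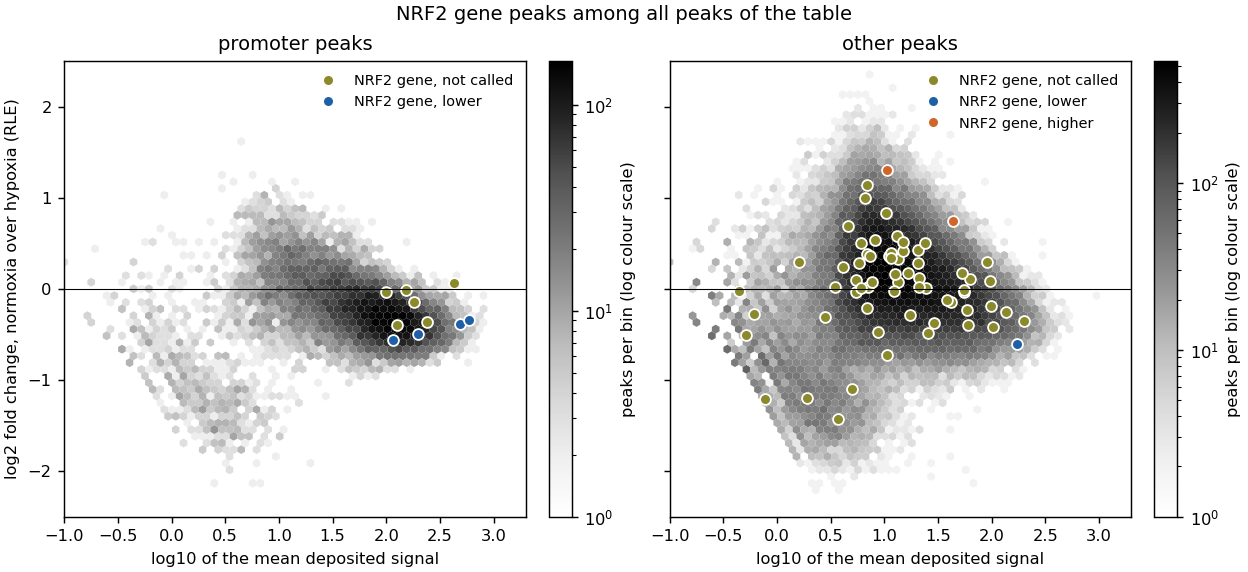
Log2 fold change (normoxia over hypoxia, RLE scaling) against the log10 of the mean deposited signal for all promoter peaks (left) and all other peaks (right) in grey hexagons shaded by the number of peaks, with the peaks of the 10 NRF2 genes as circles coloured by call. Strong promoter peaks as a whole lie below 0, and the promoters of the 10 genes, from -0.56 (Gclc) to 0.07 (Txnrd1), lie within that cloud.

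On the deposited scale all 10 promoter peaks had less signal in both normoxia libraries than in either hypoxia library. The same held for 59.5% of all peaks, and 6.94% of all peaks were higher in both normoxia libraries. Promoters fell more often than other peaks. By the sign of the fold change alone, 16750 of all 17670 promoter peaks were below 0 as deposited. Among the 5858 promoter peaks at least as strong as the weakest of the 10, 5848 were. The summed promoter signal was 3166 and 3386 in hypoxia against 1813 and 2121 in normoxia (two-sided exact permutation p = 0.333, which is the lowest value that 2 against 2 libraries can reach). The summed distal signal was 2103 and 2341 against 1393 and 1641 (two-sided exact permutation p = 0.333). As a share of the signal in all nuclear peaks, the promoters took up 0.0640% ± 0.00049 (SD, n = 2) under hypoxia but 0.0593% ± 0.0013 (SD, n = 2) under normoxia (two-sided exact permutation p = 0.333), and the distal peaks 0.0434% ± 0.00090 and 0.0457% ± 0.0012. So within the peaks of a library the promoter share was lower and the distal share higher in normoxia, without overlap of the groups. The whole table leaned the same way. After RLE scaling its median log2 fold change was -0.27 over all promoter peaks, -0.38 over the strong ones and 0.05 over all other peaks. After RLE scaling, 7 promoter peaks were lower without overlap, Txnrd1 was higher, and Keap1 and Nqo1 overlapped, beside 29.6% of all peaks lower and 27.4% higher. By sign alone, 9 of the 10 promoters were then below 0, and so were 5674 of the 5858 strong promoter peaks.

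**Figure D2:**
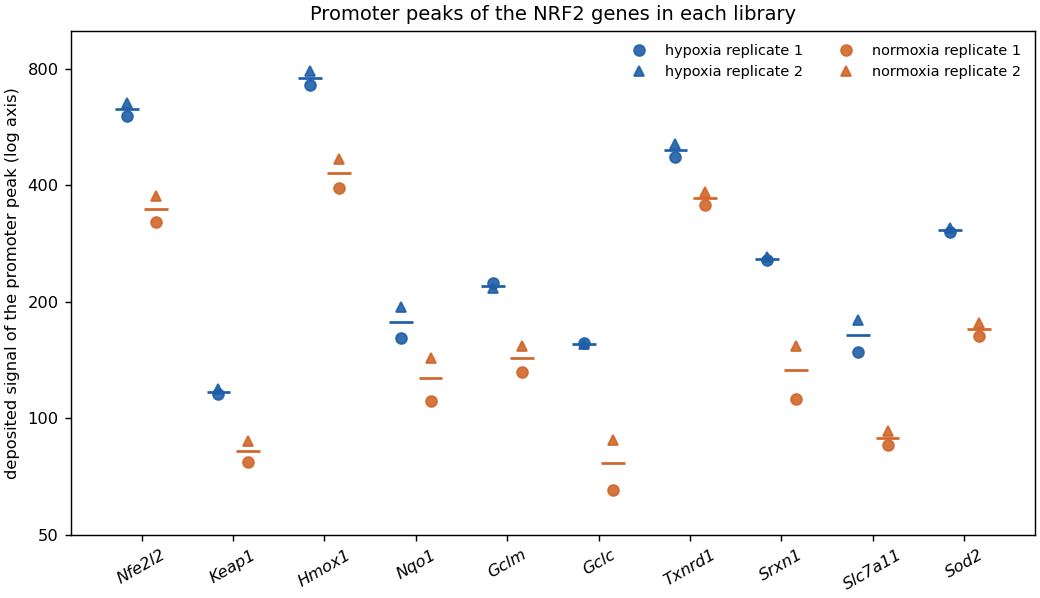
Deposited signal (taken as reads of the peak per 10000000 reads of the library, log axis) of the promoter peak of each NRF2 gene in the 4 libraries, hypoxia in blue and normoxia in orange, with circles for replicate 1, triangles for replicate 2 and a line at each group mean. In all 10 genes both normoxia libraries lie below both hypoxia libraries, with the narrowest gap at Nqo1 (161 and 193 against 111 and 143) and a wide one at Gclc.

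Of the regulators, Nfe2l2 was called lower at its promoter and Keap1 was not. The promoter peak of Nfe2l2 (chr2:75686601-75705700), which covers its start and reaches far into the gene, had signals of 605 and 653 in hypoxia against 320 and 374 in normoxia. The groups were far apart, and the peak was called lower (log2 fold change -0.38, SE 0.087, limma FDR 0.0033), although under cyclic loess its fold change was 0.12. A strong intronic peak downstream of it (chr2:75680801-75686400) had 244 and 264 in hypoxia against 137 and 149 in normoxia. Its fold change was as large, -0.35 (SE 0.11), but it was not called (limma FDR 0.026). The log2 fold changes of all 6 peaks of Nfe2l2 were below 0, and 4 of them had an unadjusted p under 0.05. Of all 128055 peaks, 21576 were lower at that p. Of the 4 Nfe2l2 peaks, 2 were weak ones that border the promoter peak. They held 4 and 5 reads in hypoxia against 0 and 0 in normoxia, and 11 and 26 against 4 and 2. Under cyclic loess only 2 of the 6 peaks were below 0. The promoter peak of Keap1 (chr9:21237201-21241900) had 115 and 119 in hypoxia against 76.8 and 87.1 in normoxia. After RLE scaling its groups overlapped, with a log2 fold change of -0.04 (95% interval -0.30 to 0.22, limma FDR 0.88). Its 3 distal peaks ran from -0.48 to 0.58, and none was called. The strongest of them (chr9:21224801-21226200) had 38.9 and 29.2 in hypoxia against 16.9 and 17.4 in normoxia (-0.48, SE 0.21, limma FDR 0.12). Whether Nfe2l2 and Keap1 differed from each other was not tested.

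Hmox1 encodes heme oxygenase, which opens the heme ring to biliverdin, iron and carbon monoxide, and its upstream enhancers are a textbook case of control by NRF2 and BACH1. All 3 of its peaks had less deposited signal in both normoxia libraries, and 2 of them were called lower. As deposited, 59.5% of all peaks were lower in both normoxia libraries and 6.94% were higher. Of the 5858 strong promoter peaks 37.9% were called lower and 0.205% higher after RLE scaling. Over all peaks outside promoters the shares were 2.64% and 1.98%. The near upstream peak (chr8:75088501-75091200), 2.42 kb from the start at its closer edge and holding 4 cores and 1 joint site, had 222 and 243 in hypoxia against 97.4 and 122 in normoxia. It was called lower with the lowest FDR of the 76 peaks (log2 fold change -0.60, SE 0.12, limma FDR 0.00064). The far upstream peak (chr8:75082901-75086800), with 6 cores and the 3 clustered joint sites printed above, had 157 and 181 in hypoxia against 91.5 and 113 in normoxia. It was not called (log2 fold change -0.25, 95% interval -0.49 to -0.0039, limma FDR 0.16). The log2 ratio of near over far signal within a library, which is free of library size factors and was chosen after the values were seen, was 0.50 and 0.42 in hypoxia against 0.09 and 0.11 in normoxia. The ratio was lower in both normoxia libraries (two-sided exact permutation p = 0.333). It sets a peak already called lower beside a peak that fell less, so the ratio adds no separate support. Per kb the near peak held 86.0 units in hypoxia and 40.7 in normoxia on average, and the far peak 43.4 and 26.2, so the near peak was the denser one in either condition.

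The promoter peak of Hmox1 (chr8:75092601-75111100) was the strongest of the 76, and at 18500 bp it also covers a start of the neighbour Mcm5, so that the genes' shares of it cannot be told apart. It had signals of 726 and 790 in hypoxia against 393 and 467 in normoxia, and was called lower (log2 fold change -0.34, SE 0.084, limma FDR 0.0058). With edgeR on recovered reads it missed the threshold (FDR 0.011), and under cyclic loess it turned to 0.18. Nqo1, the quinone reductase often used as a readout of NRF2, showed another pattern. Its promoter peak (chr8:107401601-107407500) had 161 and 193 in hypoxia against 111 and 143 in normoxia, and after RLE scaling the groups overlapped (log2 fold change -0.01, 95% interval -0.25 to 0.24, limma FDR 0.98). A weak intronic peak 2.11 kb into the gene (chr8:107400301-107401100) had more signal in normoxia, 9.37 and 8.34, than in hypoxia, 4.25 and 5.78. It rests on 12 and 17 reads in hypoxia and 25 in each normoxia library, and it was not called (log2 fold change 1.14, SE 0.33, limma FDR 0.018). The strongest distal peak of Nqo1, past its end (chr8:107381701-107387200), had 66.5 and 61.5 in hypoxia against 46.5 and 44.7 in normoxia, with a fold change near 0 (-0.01, SE 0.16, limma FDR 0.98).

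Glutathione supply rests on glutamate-cysteine ligase, with its catalytic subunit Gclc and modifier subunit Gclm, and on the cystine transporter Slc7a11. At Gclc, the promoter was called lower and a peak upstream of it higher. The promoter peak (chr9:77753801-77756800) had 156 and 155 in hypoxia against 65.2 and 87.8 in normoxia, a ratio of means of 0.492 and the largest fall among the 10 promoters after RLE scaling (log2 fold change -0.56, SE 0.13, limma FDR 0.0039). This peak held no antioxidant response core. The next peak upstream (chr9:77749201-77751900), which holds the joint site of Gclc printed above, had 131 and 139 in hypoxia against 72.0 and 72.4 in normoxia, and was not called (log2 fold change -0.42, SE 0.13, limma FDR 0.024). Another peak, 8.84 kb upstream of the start (chr9:77744601-77745700), had 40.3 and 39.1 in hypoxia against 45.7 and 51.1 in normoxia. It was higher in both normoxia libraries even on the deposited scale, and was called higher after RLE scaling (log2 fold change 0.74, SE 0.16, limma FDR 0.0023), after equal totals (1.03, limma FDR 0.00011) and after cyclic loess (0.84, limma FDR 0.0011). On the deposited values themselves the difference was small and not called (0.28, limma FDR 0.28). The log2 ratio of this peak over the promoter within a library was -1.95 and -1.99 in hypoxia against -0.51 and -0.78 in normoxia. The pair was chosen after the values were seen for moving in opposite directions, so the ratio adds no separate support. In the gene body, a weak peak with a core (chr9:77765801-77767100) had overlapping signals of 15.2 and 12.9 in hypoxia against 13.1 and 12.7 in normoxia (0.33, SE 0.26, limma FDR 0.41).

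The promoter peak of Gclm (chr3:122242901-122248100) had 223 and 217 in hypoxia against 132 and 154 in normoxia, and was not called (log2 fold change -0.15, 95% interval -0.37 to 0.08, limma FDR 0.40). The promoter peak of Slc7a11 (chr3:50442501-50444900) had 148 and 179 in hypoxia against 85.1 and 92.8 in normoxia, and missed the threshold (log2 fold change -0.39, SE 0.12, limma FDR 0.028). Slc7a11 accounted for 37 of the 76 peaks, because its longest transcript in GENCODE M21 runs from 49892526 to 50443614 on chromosome 3, while its principal transcript ends at 50364938. Only 4 of the 37 fell in the span of the principal transcript. The other peaks are counted as its distal peaks by position alone. The only called one (chr3:50304101-50305100) had 5.66 and 8.84 in hypoxia against 11.99 and 16.02 in normoxia, from 16, 26, 32 and 48 reads, and was called higher (log2 fold change 1.31, SE 0.29, limma FDR 0.0025). It lies beyond the end of the principal transcript. Among the 36 distal peaks of Slc7a11 the log2 fold changes ran from -1.19 to 1.31, 13 were below 0, and 4 had an unadjusted p under 0.05 downwards and 4 upwards. The strongest (chr3:49928501-49930000) had 108 and 136 in hypoxia against 66.0 and 88.8 in normoxia and was not called (-0.19, SE 0.14, limma FDR 0.38). The 6 others named by the rule, with a core and a mean signal of at least 10, had fold changes from 0.12 to 0.83 without a call. Of these, only a peak over an exon near the promoter (chr3:50437801-50438800) lay in the principal transcript, with overlapping signals of 18.05 and 26.2 in hypoxia against 15.7 and 23.4 in normoxia (0.28, SE 0.23, limma FDR 0.43).

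The 2 peaks called higher held no antioxidant response core. A peak of their width held one in 36.9% of cases at 1100 bp (the Gclc peak) and in 34.1% at 1000 bp (the Slc7a11 peak). The Gclc peak held 1 AP-1 site and no HIF core (ACGTG, bound by the hypoxia-inducible factors), and the Slc7a11 peak held 1 HIF core and no AP-1 site. Among all peaks of the same widths 48.6% held an AP-1 site and 39.2% a HIF core, so neither match is unusual. Both are shown with the matched letters in capitals, since these are the 2 peaks of the 10 genes called higher after RLE scaling.
Gclc upstream, AP-1 site, chr9:77745042-77745092, plus strand: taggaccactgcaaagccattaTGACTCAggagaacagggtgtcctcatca
Slc7a11 distal, HIF core, chr3:50304844-50304892, minus strand: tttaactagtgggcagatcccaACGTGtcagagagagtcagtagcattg

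Thioredoxin reductase (Txnrd1) and sulfiredoxin (Srxn1), which restores overoxidised peroxiredoxins, are the thiol repair genes of the group. Their promoters lay near opposite ends of the 10. Txnrd1 (chr10:82857801-82877000) had 473 and 511 in hypoxia against 356 and 385 in normoxia, the smallest loss of the 10 on the deposited scale with a ratio of means of 0.752. After RLE scaling it was the only promoter with a fold change above 0 (0.07, 95% interval -0.11 to 0.25, limma FDR 0.65). This peak spans 19200 bp over an internal start site of Txnrd1 and also covers a start of Eid3, so the share of each gene cannot be told apart. The 3 named distal peaks of Txnrd1 were not called either, with log2 fold changes of -0.15 upstream of the gene, 0.42 in the gene ahead of the internal start and -0.23 past the end. The last and strongest of these (chr10:82898901-82902000) had 74.7 and 71.4 in hypoxia against 44.2 and 45.1 in normoxia. Srxn1 (chr2:152101801-152107300) had 256 and 260 in hypoxia against 112 and 154 in normoxia, and was called lower (log2 fold change -0.50, SE 0.12, limma FDR 0.0040). The wide peak over the body of Srxn1 directly downstream (chr2:152107701-152116200) had 90.6 and 102 in hypoxia against 72.7 and 98.8 in normoxia, with overlapping groups as deposited and no call (0.29, SE 0.14, limma FDR 0.14). Its log2 ratio to the promoter peak within a library was -1.4998 and -1.35 in hypoxia against -0.62 and -0.64 in normoxia, so that relative to the gene body the start region held less in both normoxia libraries (two-sided exact permutation p = 0.333). This pair was not planned in advance. It sets a promoter already called lower beside a peak with a fold change above 0, so the ratio adds no separate support. Sod2, the manganese superoxide dismutase of mitochondria, had the densest promoter peak of the 10 per kb (chr17:13006701-13010700), with 302 and 309 in hypoxia against 163 and 177 in normoxia. It was not called at the threshold used (log2 fold change -0.37, SE 0.10, limma FDR 0.015). Its single distal peak (chr17:12996101-12996900) had overlapping signals of 15.2 and 21.4 in hypoxia against 14.2 and 15.4 in normoxia and was not called (0.18, limma FDR 0.66).

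**Figure D3:**
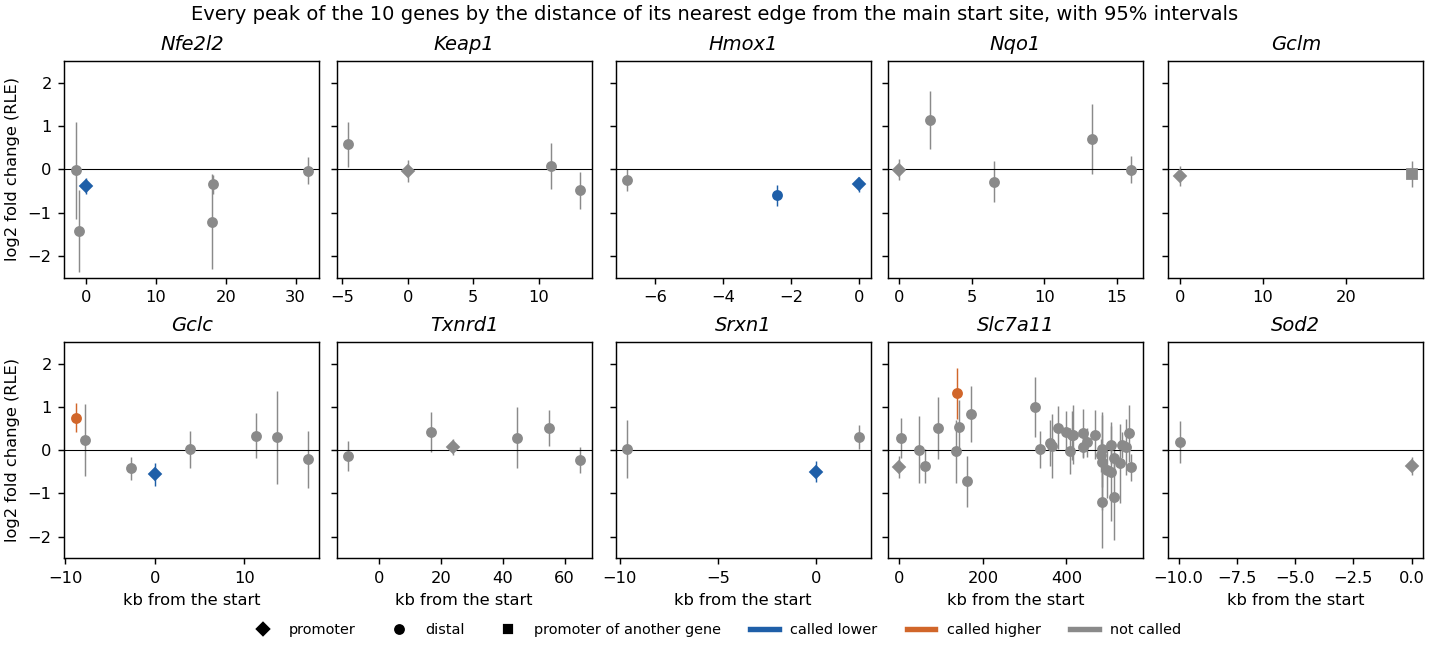
Log2 fold change (normoxia over hypoxia, RLE scaling) of every peak of each NRF2 gene against the distance in kb of its nearest edge from the main start site, upstream negative, with 95% intervals as bars, diamonds for promoter peaks, circles for distal peaks and a square for the promoter peak of another gene. Called peaks are blue (lower) or orange (higher), and at Gclc the orange peak upstream stands opposite the blue promoter.

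The distance of the core from the nearest start of any transcript of the gene did not separate the called promoters from the others. Gclm, Keap1 and Txnrd1, with cores among the closest by that measure, though not all by the main start, were not called. Srxn1 with a core at 32 bp was called lower. So were Nfe2l2, Hmox1 with its nearest core at 4802 bp and Gclc with no core in its promoter peak. Of the 4 peaks with a joint site, the near upstream peak of Hmox1 was called lower, and the far one, the upstream peak of Gclc and the promoter peak of Sod2 had log2 fold changes of -0.25 to -0.42 without a call. No test of motifs against fold change was made.

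Among the 65 distal peaks, log2 fold changes ran from -1.43 to 1.31, and 27 were below 0. A mean signal under 10 was found in 26 of them, none of which was called, while 4 had an unadjusted p under 0.05 downwards and 2 upwards, where 12.5% of all other peaks had one downwards and 13.9% upwards. In the 39 stronger ones the median was 0.08, against 0.02 over all other peaks of that strength. The peak caller had assigned 70 of the 76 peaks to both oxygen conditions and 6 to hypoxia only (7.89%, against 6.84% of the table). These 6 belonged to Nfe2l2 and Slc7a11, and their mean signal reached at most 5.05. Without Slc7a11 the distal median was 0.01 over 29 peaks.

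The counts and the sign of the promoter median depended on the scaling. With no scaling beyond the library total, 7 of the 10 promoters were called lower. So were 10710 of all 17670 promoter peaks, and 5537 of the 5858 at least as strong as the weakest of the 10. Of the 76 peaks 20 were called lower and 0 higher, where 24.0% of all peaks were called lower and 0.391% higher. With equal totals over peaks, mitochondrial peaks included, 0 peaks of the 10 genes were called lower and 6 higher, where 0.842% of all peaks were called lower and 6.87% higher. Under cyclic loess, which removes the trend with peak strength, 0 were called lower and 3 higher, where 1.31% of all peaks were called lower and 1.42% higher. These 3 were the promoter of Txnrd1 (0.55, limma FDR 6.2e-06), the body peak of Srxn1 (0.53, limma FDR 0.0070) and the upstream peak of Gclc. Gclc and Srxn1 were lowest and Txnrd1 highest of the 10 promoters under all 4 scalings. The promoter median was -0.83 as deposited, -0.36 after RLE scaling, -0.065 with equal totals and 0.15 under cyclic loess. Of the 10, Gclc, Srxn1 and Slc7a11 alone had promoter fold changes below 0 under all 4.

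**Figure D4:**
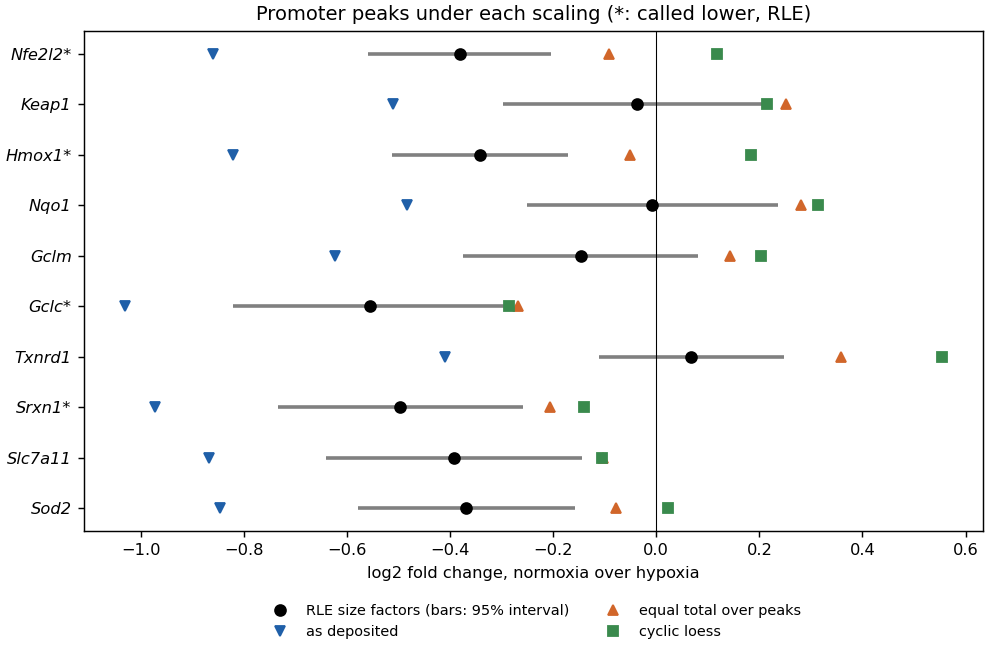
Log2 fold change (normoxia over hypoxia) of the promoter peak of each NRF2 gene under 4 scalings, with the 95% limma interval after RLE scaling as a grey bar and asterisks on the 4 genes called lower after it. The scaling moves the markers of every gene, but by unlike amounts under cyclic loess. From RLE scaling to cyclic loess Nfe2l2 goes from -0.38 to 0.12 and Gclc from -0.56 to -0.29. Txnrd1 lies to the right and Gclc to the left of the other genes under each scaling.

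Other genes of the redox network were taken as a wider list of 38 genes with 228 peaks. Of these peaks 17 were called lower and 2 higher (limma), beside 4.57% and 1.77% of all peaks. Of the promoter peaks 9 of 46 were lower and 0 higher. Of the distal peaks 7 of 167 were lower and 2 higher, beside 2.64% and 1.98% of all other peaks. A further 1, at the start of a neighbouring gene, was lower. With edgeR 20 were called lower and 4 higher, beside 7296 and 3257 of all 128055 peaks. At an unadjusted p under 0.05 the limma counts of promoters were 25 lower and 1 higher, beside the 44.1% and 3.88% of all promoters. The split turned with the scaling, to 82 lower and 0 higher as deposited, 1 and 11 with equal totals and 6 and 8 under cyclic loess. The shares of all peaks were 24.0% and 0.391%, 0.842% and 6.87%, and 1.31% and 1.42%, in that order. The promoter median was -0.28, beside -0.27 over all promoter peaks, and the 9 of 46 stand beside the 16.7% of all promoters called lower.

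Factors that act on the same elements or on NRF2 itself were among the called promoters. The promoter of Bach1 fell from 238 and 280 to 108 and 134 (log2 fold change -0.62, limma FDR 0.00042). That of Cul3, the ligase scaffold that takes NRF2 from KEAP1, fell from 224 and 233 to 92.6 and 125 (-0.60, limma FDR 0.00091). Bach2, a relative of Bach1, had its promoter and 3 distal peaks called lower, and the strongest of these (chr4:32248101-32251800) fell from 373 and 411 to 174 and 211 (-0.55, limma FDR 0.00039). Over all other peaks 2.64% were called lower. Across this group of factors 3 of 10 promoter peaks were called lower and 0 higher (16.7% and 0.441% of all promoters). Among promoter peaks at least as strong as the weakest of the 10 NRF2 genes the shares were 37.9% and 0.205%. With equal totals 0 were lower and 2 higher, beside 407 and 464 of all 17670 promoter peaks. Under cyclic loess 0 were lower and 3 higher, beside 362 and 222. The small MAF genes Mafg, Maff and Mafk had no called promoter.

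NADPH, which glutathione and thioredoxin reductases consume, is made by the pentose phosphate enzymes G6pdx and Pgd and by malic enzyme (Me1), and the group also holds Tkt and Taldo1 of the non-oxidative branch. In this group 5 of 37 peaks were called lower and 1 higher, beside 4.57% and 1.77% of all peaks. The split turned with the scaling, to 12 lower and 0 higher as deposited, 0 and 3 with equal totals and 2 and 1 under cyclic loess. The G6pdx promoter fell from 122 and 119 to 42.7 and 59.1 (-0.78, limma FDR 0.00044), and 2 further peaks of its span were called lower. At Pgd a distal peak with 34.0 and 29.9 in hypoxia against 34.5 and 41.4 in normoxia was called higher after RLE scaling (0.70, limma FDR 0.0079). Of the glutathione genes the promoter of Gsr, glutathione reductase, fell from 105 and 108 to 40.1 and 56.7 (-0.67, limma FDR 0.0021). It was 1 of 12 promoter peaks of the group, where 16.7% of all promoters were called lower. Catalase (Cat) fell from 190 and 186 to 87.7 and 91.8 (-0.58, limma FDR 0.0013), and the biliverdin reductase Blvrb from 327 and 334 to 141 and 197 (-0.51, limma FDR 0.0023). The lowest FDR of the list was that of a distal peak in Blvra, the other biliverdin reductase (chr2:127084801-127085900), which fell from 43.9 and 45.6 to 11.6 and 16.02 (-1.18, limma FDR 0.00022). A wide distal peak downstream of the extracellular superoxide dismutase Sod3 (chr5:52373501-52384500) was called higher after RLE scaling (0.65, limma FDR 0.0016), although its deposited signals of 84.9 and 76.2 in hypoxia against 82.5 and 100.4 in normoxia overlapped. In the thioredoxin group 0 of 6 promoter peaks were called by limma, where 16.7% of all promoters were called lower. At an unadjusted p under 0.05, 3 of the 6 were lower, beside 44.1% of all promoters. The 1 called peak was distal, in Txnip, the thioredoxin inhibitor, at 12.7 and 13.9 in hypoxia but 3.37 and 2.34 in normoxia (-1.503, SE 0.34, limma FDR 0.0030).

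**Figure D5:**
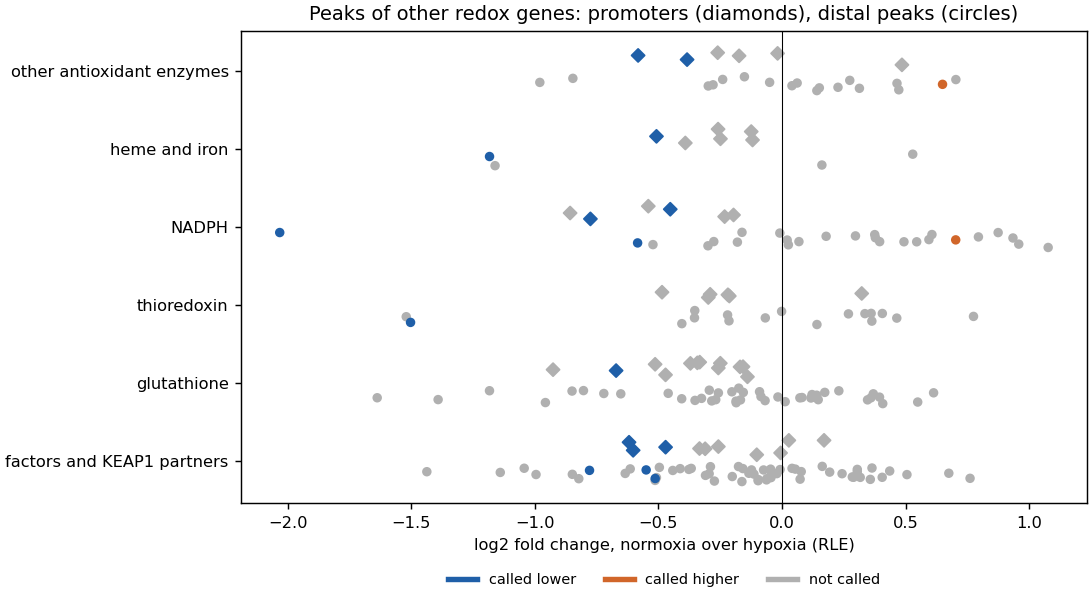
Log2 fold change (normoxia over hypoxia, RLE scaling) of the promoter peaks (diamonds) and distal peaks (circles) of 38 further redox genes in 6 groups, blue where called lower and orange where called higher. Promoters lie mostly below 0, with a median of -0.28, and the 2 orange circles are the distal peaks of Pgd and Sod3.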

How the data were processed

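ATAC-seq was measured in 4 libraries. The authors aligned reads to mm10 with Bowtie2, removed duplicates with Picard and called peaks jointly with chromstaR. The deposited signal, called RPKM by the authors, was taken as reads divided by library reads, times an assumed 10000000, and not divided by width. All values (100%) were whole multiples of 1 read to within 0.001, so reads were recovered. Reads may be summed over overlapping bins, and depth intervals were therefore not given. Groups followed the labels.

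limma 3.58.1 (R 4.3.3, trend and robust) was fitted on log2(signal + 1) after RLE scaling to all peaks, two-sided, with Benjamini-Hochberg adjustment. It was tested on simulated data with 200 changed peaks of 128055 for normoxia against hypoxia, and recovered 99% of 4-fold and 68% of 2-fold changes. The changed peaks were drawn from those with a mean signal of at least 10, with normal noise, and 5 unchanged peaks were called. Smaller changes and weaker peaks were not simulated as changed, so recovery of these is unknown. Alternatives were other scalings, pseudocounts of 0.1 and 5, a mean signal of at least 5, an FDR under 0.05, edgeR 4.0.16 and DESeq2 1.42.0 on recovered reads, a replicate block and leaving out each library.

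Genes and starts came from GENCODE M21, on the build of the files, with no peak past a chromosome end. Named were all promoter peaks, called peaks, the strongest distal peak of a gene and distal peaks holding a core with a mean signal of at least 10, and of the wider list up to 12 called peaks of lowest p. The intronic Nqo1 peak and the Pgd and further Bach2 and G6pdx peaks fall outside this rule and were named after their values were seen. The members and lists were chosen with earlier results of these data known. A further blood marker is not reported here.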

Additional observations from a re-analysis of the deposited data

How the results depend on the processing

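Calls after RLE scaling were 5 lower and 2 higher among the 76 peaks. As deposited the calls were 20 lower (7 promoter, 12 distal) and 0 higher, with medians of -0.83 (promoter) and -0.36 (distal), and the wider list gave 82 lower and 0 higher. Of all 17670 promoter peaks 10710 were then called lower. With equal totals the calls were 0 lower and 6 higher (1 promoter, 5 distal), with medians of -0.065 and 0.33, and the wider list gave 1 lower and 11 higher. The difference of the summed signals was then 55.6 (promoter) and 286 (distal), against -1309 and -705 as deposited. Under cyclic loess 0 were lower and 1 promoter was higher, with a promoter median of 0.15, and the wider list gave 6 and 8. Without trend and robust estimation limma made 0 calls among all peaks, with 29293 at an unadjusted p under 0.05, and edgeR made 10553. DESeq2 gave 0 higher calls, with no adjusted p for 53 of the 76 peaks, and 10 lower and 1 higher in the wider list. An FDR under 0.05 gave 10 lower and 4 higher (4 and 4 distal) and 35 and 8 in the wider list. The gene body with 2 kb at either side left 0 lower and 1 higher distal peak, and the principal transcript of Slc7a11 (chosen after seeing the data) left 1 higher. Higher calls in the wider list were 4 with TMM factors, a mean of at least 5, either edgeR fit and the block, and 1 with a pseudocount of 0.1.

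Leaving out 1 library gave 0 to 7 lower and 0 to 3 higher among the 76, 0 to 5 lower promoters, 0 to 2 lower and 0 to 3 higher distal peaks, and 0 to 22 lower and 0 to 2 higher in the wider list. The 0 counts came without hypoxia replicate 1 or 2, the lone hypoxia library then being assumed to vary like the normoxia libraries. Libraries that shared a replicate number did not deviate together (correlation 0.011). With the replicate block the calls were 6 lower and 3 higher, and Sod2's promoter passed (FDR 0.0099).

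Of 499 values of the 32 named peaks under alternatives, 403 kept direction and side of the threshold, 37 lost a call, 17 gained one and 42 changed sign, the causes of which were not tested. Distal peaks are given here by their start. As deposited the sign turned to -0.11 (Gclc 77765801), -0.032 (Txnrd1 82850601), -0.41 (Txnrd1 promoter), -0.18 (Srxn1 152107701), -0.34 (Slc7a11 49934601), -0.29 (Slc7a11 49992501), -0.051 (Slc7a11 50003701), -0.031 (Slc7a11 50044601), -0.17 (Slc7a11 50437801) and -0.27 (Sod2 12996101). With equal totals the sign turned to 0.25 (Nfe2l2 75669201), 0.25 (Keap1 promoter), 0.039 (Hmox1 75082901), 0.28 (Nqo1 107381701), 0.28 (Nqo1 promoter), 0.14 (Gclm promoter), 0.14 (Txnrd1 82822701), 0.059 (Txnrd1 82898901) and 0.10 (Slc7a11 49928501). Under cyclic loess the sign turned to 0.10 (Nfe2l2 75669201), 0.013 (Nfe2l2 75680801), 0.12 (Nfe2l2 promoter), 0.22 (Keap1 promoter), 0.052 (Hmox1 75082901), 0.18 (Hmox1 promoter), 0.13 (Nqo1 107381701), 0.31 (Nqo1 promoter), 0.20 (Gclm promoter), 0.064 (Slc7a11 49928501) and 0.022 (Sod2 promoter). With TMM factors the sign turned to 0.013 (Nqo1 107381701) and 0.016 (Nqo1 promoter). With edgeR and TMM the sign turned to 0.0034 (Nqo1 107381701) and 0.016 (Nqo1 promoter). Leaving out 1 library gave -0.13 to 0.045 (Nfe2l2 75669201), -0.13 to 0.093 (Nqo1 107381701), -0.12 to 0.12 (Nqo1 promoter), -0.036 to 0.41 (Slc7a11 49992501) and -0.0068 to 0.35 (Sod2 12996101).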
